A study of Physcomitrium patens with 8 samples.

Results

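The comparison described here is drying against no treatment in the moss line labelled PpanrKO (KO below), read from 1 pooled library each, labelled KO_DH and KO_C. It covered 19821 of the 26610 genes measured, namely those with a mean deposited value of at least 20 over the 8 libraries of the series. Every group was Physcomitrium patens of the Gransden strain, grown as chloronemata, the green filaments of a young moss culture, for 6 days after subculture under continuous light. The KO control was untreated KO tissue. The KO dehydration tissue was moved off its cellophane into open dishes in a desiccator over saturated NaCl and harvested once 70% of its fresh weight was gone. The wild-type pair (WT), control and dehydration, was treated in the same manner and serves as the comparison. The ABA libraries (1e-05 M, 1 h) and mannitol libraries (10% w/v, 1 h) of both genotypes enter the gene filter and the shared fit and are otherwise set beside the drying values. The sources used here do not state how the line was made or whether it is 1 clone. No transfer of control tissue without drying is described, so drying and handling cannot be told apart.

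Abscisic acid (ABA) is the hormone through which land plants answer water shortage. Receptors that bind it block protein phosphatases, which frees kinases to switch on genes for protective proteins and sugars. Many mosses survive loss of most of their water, and in Physcomitrium patens exposure to ABA before drying improves survival. The series title presents the targeted gene as an ABA regulator of basal land plants on which desiccation tolerance depends, so the comparison asks what drying still does to transcript levels when that gene is disrupted. The deposited gene IDs carry no gene names, so the targeted gene, chloronemal markers and pathway lists could not be looked up, and genes are given by ID and position without a function.

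Each library was made from RNA pooled over 3 biological replicates, so each group is 1 library and the spread between cultures is unknown. The KO control held 32889911 reads and the KO dehydration library 27245734, within a range of 22516957 to 38767634 over the series. Differences are KO dehydration minus KO control of log2(value + 10), a scale that understates the change of low genes. No comparison of these 2 libraries has a test. Intervals in brackets are exact 95% intervals for ratios of reads or shares of reads and cover counting error only, since PCR copies of a molecule are counted as separate reads.

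The deposited values do not take out the difference in sequencing depth. Each deposited value was a whole number of reads times 1 constant for its library, and that constant equalled the reciprocal of the library's TMM factor, a correction for composition that is normally multiplied with library size. Step times factor differed from 1 by at most 5.2e-10 in any library. The KO control library was 1.21 times as deep as the KO dehydration library, a log2 depth difference of -0.27. The median difference of all genes between these libraries was -0.25, with a middle 90% of genes from -1.41 to 0.64. With TMM factors and library size together the median was 0.00 and the same range ran from -1.17 to 0.89.

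On the deposited scale 57 genes (0.288% of 19821) were at least 4-fold higher after drying and 359 (1.81%) at least 4-fold lower, so 86.3% of the genes past 4-fold were lower. With library size included the counts were 89 higher (0.45%) and 256 lower (1.29%), with 74.2% of them lower. In RNA from whole tissue, fewer cells of a type and less RNA per cell cannot be told apart. All 57 higher genes were among the 89, and all 256 lower genes were among the 359. Measured from the median of all genes on the deposited scale, 89 were higher and 245 lower. Lower genes outnumbered higher genes at 8-fold too, with 72 lower and 16 higher as deposited and 48 and 23 with library size. Scaled to library totals alone, the median was 0.22 and the counts were 120 higher and 183 lower, with 33 higher and 30 lower at 8-fold. At 2-fold the counts were 390 higher and 2138 lower as deposited, 723 and 1336 with library size, and 1373 and 942 with totals alone. Lower genes were thus the more numerous at 4-fold on each of these scales, whereas at 2-fold and 8-fold the order turned with totals alone. Including library size multiplies each fold given below for KO, dehydration over control, by 1.21 and each WT fold by 1.16, so folds printed as lower become smaller by these factors.

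**Figure D1:**
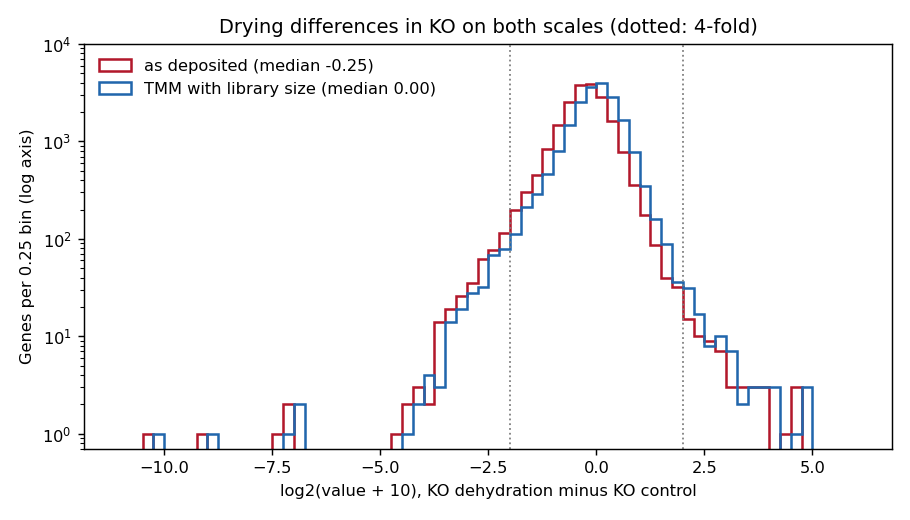
Number of genes (log axis) in bins of 0.25 of the log2(value + 10) difference, KO dehydration minus KO control, for values as deposited and for TMM with library size. The deposited curve, with its median at -0.25, lies left of the other, with its median at 0.00, and both have a longer tail of lower genes, down to -10.29 as deposited.

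The genes past 4-fold in opposite directions differed in control level. The KO control value entered their choice, so this contrast and the counts of few reads are fixed in part by it. The 57 higher genes had a median deposited value of 50.7 before drying (KO control) and 379 afterwards, and 38 of them had fewer than 100 reads in the control. The 359 lower genes had medians of 362 and 43.1, and 65 of them had fewer than 100 reads in the control. The median of all genes was 382 in the control. Deposited values are not divided by gene length, so these medians describe reads and not molecules. Control reads numbered at most 3 in 8 of the 57 higher genes, including 1 gene with 0, whereas 23 of the 359 lower genes had at most 3 reads after drying, 4 of them 0.

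The higher genes carried few reads and the lower genes a moderate share. Together the 57 genes took 0.0351% of the KO control reads (0.0345 to 0.0358) and 0.345% of the dehydration reads (0.343 to 0.347). The 359 genes went from 3.13% (3.12 to 3.13) to 0.579% (0.576 to 0.582). A larger mass of reads sat in the 1779 genes that were 2- to 4-fold lower, which held 21.7% of the control reads (21.65 to 21.68) and 10.4% after drying (10.35 to 10.37). Over all genes, losses in share summed to 17.2 percentage points.

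Of that loss, 33.4% came from 5 genes within 1 stretch of chromosome 13, picked out after their values were seen. They lie between positions 11432214 and 11679572 of build V3.0 and held 9.32% of the KO control reads (9.31 to 9.33) and 3.59% after drying (3.58 to 3.60), with differences from -1.91 to -1.85. The 2 largest single losses of share were among them. Phpat.013G054400 (11615136 to 11618277, plus strand) went from 726980 KO control reads to 231580 dehydration reads, 3.70-fold lower (3.68 to 3.72). Phpat.013G054500 (11624452 to 11626931, plus strand) went from 705256 to 222460, 3.73-fold lower (3.72 to 3.75). Neither is a 4-fold gene on any scale used here, and 6 other measured genes of the same stretch had differences between -0.95 and 0.30. In WT the 5 genes went from 6.82% (6.81 to 6.83) to 1.35% (1.34 to 1.35), with differences of -2.26 to -2.19. Their share was 7.02% in KO ABA (7.01 to 7.03) and 8.72% in KO mannitol (8.72 to 8.73), so among the KO libraries their share was lowest after drying. Counts of the 5 genes ran nearly in parallel, and reads shared between copies cannot be told apart from separate changes.

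The largest gains in share were in genes whose deposited values were lower after drying. Phpat.020G002700 (chromosome 20, 158748 to 160374, minus strand) and Phpat.020G003200 (chromosome 20, 181799 to 183425, minus strand) agreed within 2% in every library and may count the same reads. Phpat.020G002700 took 2.07% of the KO control library (681747 reads, 2.07 to 2.08) and 2.27% of the dehydration library (618850 reads, 2.27 to 2.28). Its deposited values gave a log2 difference of -0.38, and with library size included it was at 0.93 of its control level. Phpat.026G000100 (chromosome 26, 1627 to 4444, plus strand) went from 173986 reads to 183894, or from 0.529% (0.527 to 0.531) to 0.675% (0.672 to 0.678), with a log2 difference of -0.16 as deposited. For these abundant genes the direction depends on the scaling.

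**Figure D2:**
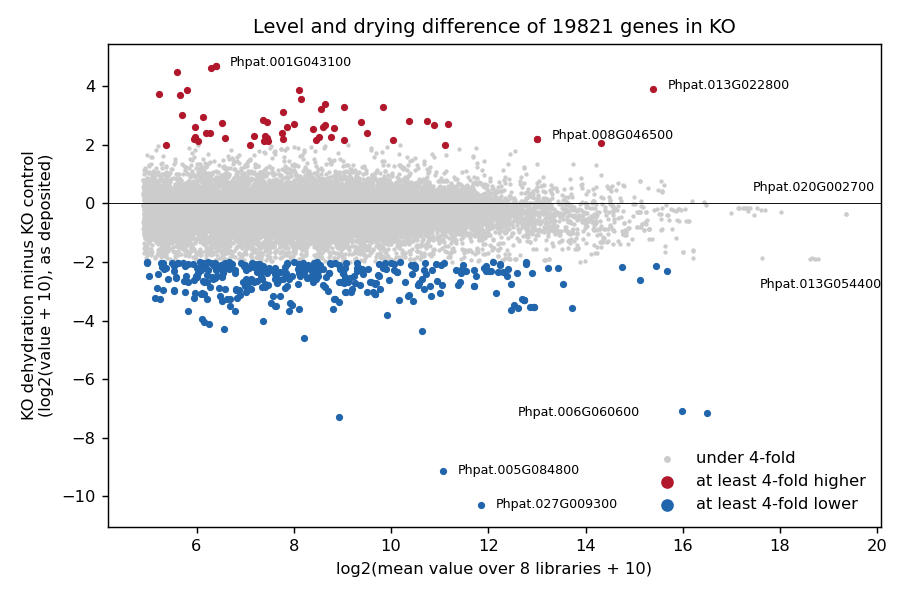
Difference between KO dehydration and KO control against the log2 mean level over 8 libraries, 1 point per gene for 19821 genes, as deposited. The 57 higher genes (red) and the 359 lower genes (blue) both span the range of level. The lowest quintile of genes by mean level holds 18 higher and 102 lower genes, and the highest holds 9 and 79. Of the lower genes, 5 lie under -7.

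Among the higher genes, the largest differences came from a group on chromosome 1 with near-copies on a scaffold. Phpat.001G043100 (minus strand of chromosome 1, 7536666 to 7538187) had a counterpart, Phpat.1Z039500 (scaffold_38, 75687 to 77208, minus strand), with equal reads in all 8 libraries. Phpat.001G043100 yielded 3, 5, 7 and 6 reads from control, ABA, mannitol and dehydration tissue of WT, and 1, 6, 402 and 297 from KO. It was high only in KO mannitol and KO dehydration, with a drying ratio of 252 (44.9 to 9990) that rests on 1 control read. Phpat.001G041900 (chromosome 1, 7381922 to 7383359, plus strand) was next and yielded 3, 5, 7 and 5 reads from WT and 1, 6, 364 and 285 from KO, a ratio of 242 (43.1 to 9588). Its reads ran so close to those of Phpat.001G043100 that shared reads cannot be told apart from a second transcript.

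The adjoining gene model followed the same course. Phpat.001G043000 (chromosome 1, 7535930 to 7536645, plus strand), looked up after its values were seen, yielded 6, 0, 9 and 3 reads from WT and 1, 0, 279 and 164 from KO. A further neighbour, Phpat.001G042900 (chromosome 1, 7528180 to 7530060, plus strand), also looked up afterwards, had the opposite pattern between genotypes. It yielded 499, 780, 139 and 294 reads from WT and 3, 0, 0 and 0 from KO. Nothing in the files says whether this stretch holds the targeted gene.

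The most abundant of the higher genes was Phpat.013G022800 (chromosome 13, 4626801 to 4627832, plus strand). It yielded 5754, 91506, 25371 and 113794 reads from control, ABA, mannitol and dehydration tissue of WT, and 1443, 1450, 1962 and 25569 from KO. In KO it was 15.0-fold higher after drying (14.3 to 15.9), whereas the ABA and mannitol libraries lay close to the control. In WT it was 25.2-fold higher after drying, so the KO dehydration library was well above the KO control and below the WT dehydration library.

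The other abundant locus behaved otherwise. Phpat.008G046500 (chromosome 8, 8762310 to 8763828, plus strand) and Phpat.008G046600 (chromosome 8, 8816552 to 8818069, minus strand) had equal or nearly equal reads throughout and may be 1 signal. Phpat.008G046600 yielded 1083, 898, 2503 and 794 reads from WT and 1919, 19895, 41476 and 10449 from KO. In KO it was 4.62-fold higher after drying (4.40 to 4.86), and the ABA and mannitol libraries were higher still, while the WT drying ratio was 0.935. Every WT library lay under every KO library in deposited value.

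The 57 genes were picked for a high KO dehydration value, so how often that library led the 8 is fixed in part by the choice. With library size included, KO mannitol held the highest level in 17 of the 57 (29.8%, against 13.8% of all genes), and KO dehydration in 26. WT dehydration held it in 5 (8.77%, against 17.01% of all genes). The ABA, mannitol and dehydration differences of KO share the KO control library and are therefore only set side by side. As deposited, and so with depth not taken out, their medians for the 57 genes were 1.11, 2.58 and 2.60. All genes had 0.23, 0.13 and -0.25 on that scale. The KO ABA, mannitol and dehydration libraries held 38767634, 35622143 and 27245734 reads, against 32889911 in the KO control. Also as deposited, the same 57 genes had WT medians of -0.25 with ABA, 0.62 with mannitol and -0.24 with drying. All genes had WT medians of 0.18, 0.47 and -0.20. The WT ABA, mannitol and dehydration libraries held 29960046, 36119189 and 22516957 reads, against 26126876 in the WT control.

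Among the lower genes, a few lost nearly all their reads. Phpat.027G009300 (chromosome 27, 1324996 to 1329780, minus strand) yielded 12301, 7, 24 and 285 reads from control, ABA, mannitol and dehydration tissue of WT, and 15628, 4, 3 and 4 from KO. It was 4603-fold lower after drying in KO (1797 to 16900) and 33.8-fold lower in WT (30.1 to 38.2). Phpat.005G084800 (chromosome 5, 16084219 to 16086142, plus strand) yielded 8114, 36, 20 and 692 reads from WT and 7524, 17, 12 and 5 from KO. It was 1773-fold lower in KO (759 to 5462) and 9.19-fold lower in WT (8.50 to 9.95). Both were high in the controls and lower under every treatment of both genotypes. They were picked for the lowest KO differences, -10.29 and -9.14, and no gene had a WT difference under -6.82. The weaker fall in WT was thus fixed by the choice. In both genes the dried WT tissue kept more reads than the dried KO tissue. Their WT dehydration values, 351 and 852, were still above the median of all genes in that library, 274.

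The most abundant of the 4-fold lower genes were neighbours on chromosome 6. Phpat.006G060600 (10934034 to 10935973, minus strand) yielded 244711, 155086, 58426 and 39259 reads from WT and 145375, 874, 41 and 1192 from KO. Phpat.006G060700 (10939288 to 10940656, plus strand) yielded 171740, 104104, 41048 and 26740 from WT and 110031, 599, 30 and 932 from KO. After drying they were 144-fold (136 to 152) and 139-fold lower in KO (130 to 149), against 4.89-fold (4.83 to 4.94) and 5.03-fold in WT (4.97 to 5.10). The controls of both genotypes were alike within 2-fold, and all 3 treated KO libraries lay far under every WT library.

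A further run of neighbours was lower to nearly the same extent in both genotypes. All 7 measured genes from Phpat.023G004700 to Phpat.023G005300 (chromosome 23, 809479 to 862574), chosen after their values were seen, had KO differences between -3.56 and -3.47 and WT differences between -3.31 and -3.22. Phpat.023G004900 (823734 to 826280, minus strand), for example, yielded 31817, 8010, 36785 and 2588 reads from WT and 12711, 15340, 4409 and 1264 from KO. In KO it was 11.9-fold lower after drying (11.2 to 12.6), and its KO ABA library was close to the control. The 7 genes were in near-constant proportion to each other, and shared reads cannot be told apart from separate transcripts here. Counting genes that agree within 2% as 1 gene left 348 of the 359 lower genes and 55 of the 57 higher.

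**Figure D3:**
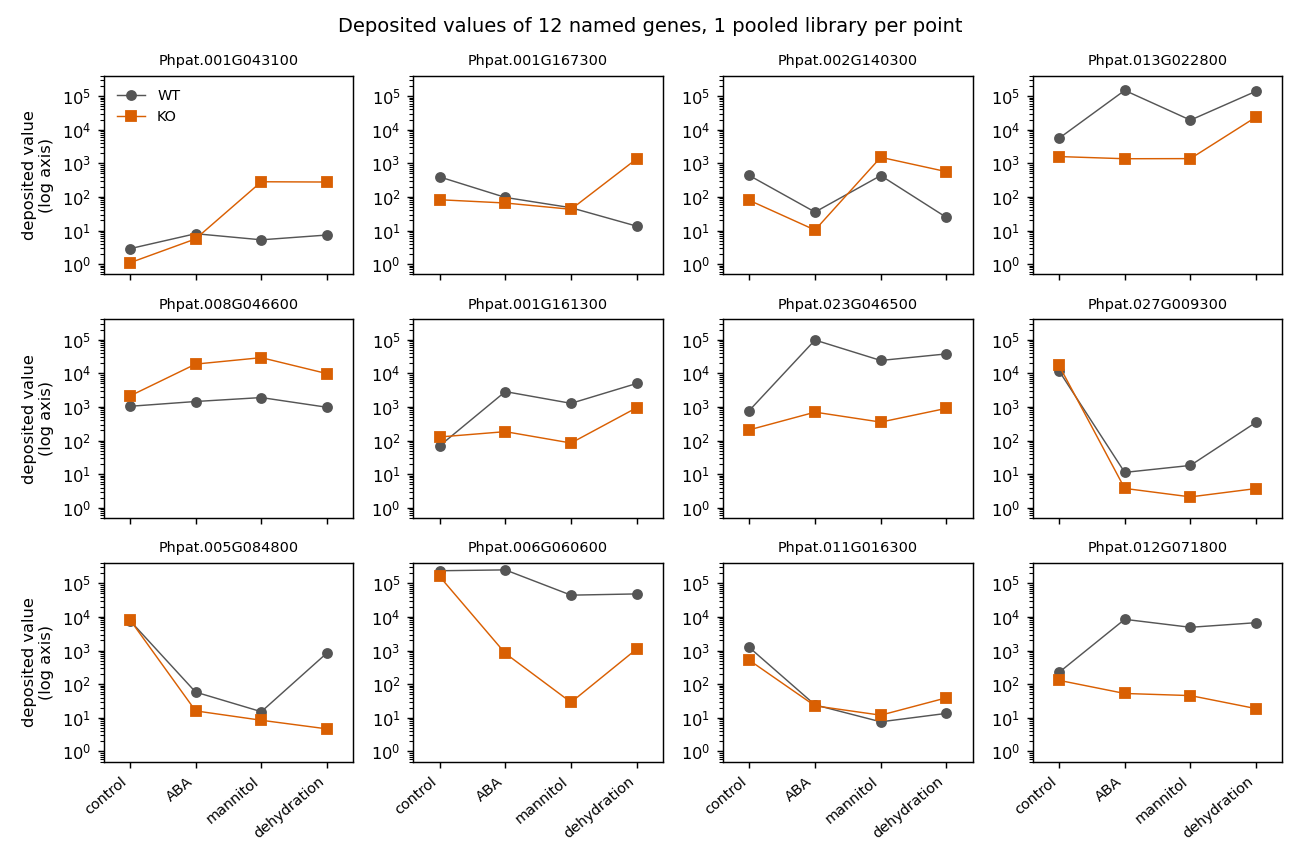
Deposited value (log axis) of 12 genes in control, ABA, mannitol and dehydration libraries of WT (circles) and KO (squares), 1 pooled library per point, with lines only joining libraries of 1 genotype. Phpat.027G009300, Phpat.005G084800 and Phpat.006G060600 lie far below the control in the treated KO libraries, and Phpat.001G167300 is high after drying in KO and low in WT.

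The WT pair shares no library with the KO pair, so it was used to read the genes picked in KO. Drying left 290 of the 359 lower genes (80.8%) at least 2-fold lower in WT too, against 20.6% of all genes, and 8 (2.23%) at least 2-fold higher, against 10.3% of all genes. Their WT median was -2.28, against -0.20 for all genes. At 4-fold, 210 genes were lower in both genotypes, which is 58.5% of the KO list and 16.02% of the 1311 genes of the WT list (6.61% of all genes). Of the 57 higher genes, 16 (28.1%, against 10.3% of all genes) were at least 2-fold higher in WT. Another 17 (29.8%, against 20.6%) were at least 2-fold lower and 24 lay between, with a WT median of -0.24. At 4-fold, 9 were higher in both, which is 15.8% of the KO list and 1.04% of the 863 genes of the WT list (4.35% of all genes). In WT, 4 of the 57 (7.02%, against 6.61% of all genes) were at least 4-fold lower. Most lower genes of KO were thus lower in WT as well. The higher genes were spread over both directions in WT. Rises and falls of at least 2-fold in WT were both more frequent among them than among all genes. The difference between the genotypes was not tested, since each pair has 1 library per group.

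The higher genes with the largest WT differences were picked for those differences, 5.98 and 5.57. No gene had a KO difference above 4.70, so the smaller change in KO was fixed by the choice. Phpat.001G161300 (chromosome 1, 28092657 to 28096622, plus strand) yielded 72, 1770, 1684 and 4059 reads from WT and 116, 195, 120 and 1016 from KO. After drying its value was 7.43-fold higher in KO (6.13 to 9.09), compared with 71.9-fold in WT. Phpat.023G046500 (chromosome 23, 9147691 to 9150793, plus strand) yielded 812, 60407, 31738 and 30711 reads from WT and 189, 741, 503 and 971 from KO. The KO ratio was 4.36 (3.73 to 5.12) and the WT ratio 48.2. In both genes the KO treated libraries stayed under the WT treated libraries.

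The lower genes with the lowest WT differences, -5.73 and -5.68, were neighbours on chromosome 11. Being picked for these, they have large WT falls in part by the choice. Phpat.011G016300 (2520495 to 2521872, plus strand) yielded 1284, 15, 10 and 11 reads from WT and 467, 24, 17 and 42 from KO. Phpat.011G016200 (2491289 to 2492466, minus strand) yielded 1113, 13, 10 and 9 from WT and 394, 19, 12 and 42 from KO. They were 13.1-fold (9.54 to 18.4) and 11.1-fold lower in KO (8.03 to 15.6), and 91.5-fold (51.0 to 184) and 96.9-fold lower in WT (50.9 to 213). Both were low in all 6 treated libraries.

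Opposite directions of at least 2-fold in WT were seen for 25 of the genes past 4-fold in KO, 17 of them higher in KO and 8 lower. Phpat.001G167300 (chromosome 1, 29721389 to 29722574, minus strand) yielded 410, 60, 63 and 11 reads from WT and 75, 70, 61 and 1459 from KO. It was 16.5-fold higher in KO after drying (13.1 to 21.1) and 29.2-fold lower in WT (16.2 to 59.0), and KO dehydration was the only high KO library. Phpat.002G140300 (chromosome 2, 22812737 to 22815114, minus strand) yielded 451, 22, 570 and 20 reads from WT and 72, 11, 2148 and 604 from KO. It was 7.12-fold higher in KO (5.57 to 9.22) and 17.7-fold lower in WT (11.3 to 29.2), and its KO mannitol library was higher than the dried one.

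In the other direction, Phpat.012G071800 (chromosome 12, 13486921 to 13488819, plus strand) yielded 232, 5251, 6464 and 5476 reads from WT and 118, 56, 65 and 20 from KO. Its KO value was 6.95-fold lower (4.30 to 11.8), while that of WT was 30.1-fold higher. Phpat.009G072700 (chromosome 9, 12690421 to 12692779, minus strand) yielded 585, 22009, 10132 and 9712 reads from WT and 82, 26, 28 and 15 from KO. Its KO value was 6.44-fold lower (3.69 to 12.03), while that of WT was 21.2-fold higher. On the log2(value + 10) scale its KO difference was -2.06 as deposited and -1.87 with library size, so it is short of 4-fold on the latter. In both genes every treated WT library was above the WT control and every treated KO library below the KO control.

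**Figure D4:**
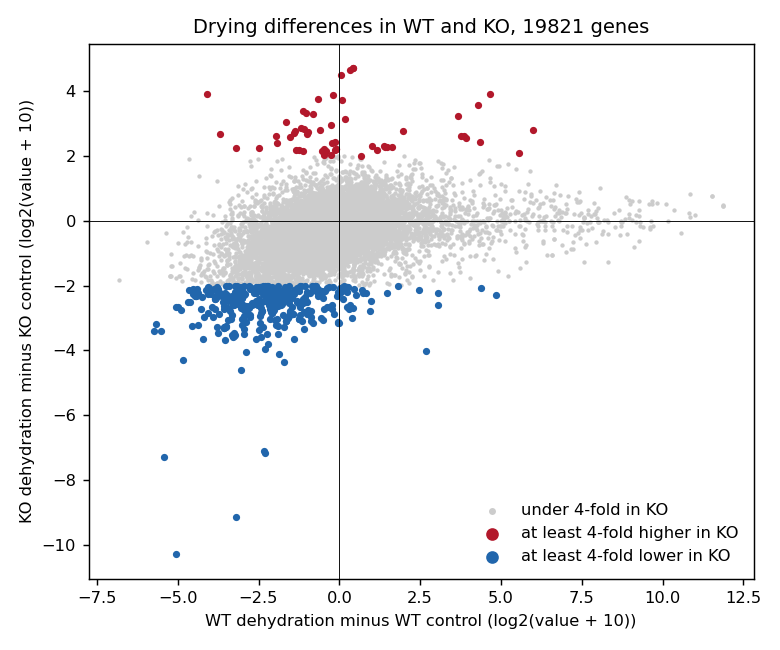
Difference between dehydration and control in KO (vertical) against that in WT (horizontal), log2(value + 10) as deposited, 1 point per gene. The 359 genes lower in KO (blue) lie mostly on the side lower in WT, with 8 at least 2-fold higher there, and the 57 genes higher in KO (red) lie on both sides.

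The KO drying difference varied with the span of the gene model, the distance from its start to its end with introns included. In quintiles of genes by span, the KO median ran from -0.36 for genes up to 1806 bp to -0.07 for genes of 4915 bp and more. Library size included, these medians were -0.13 and 0.20. At least 4-fold lower were 146 of 3965 genes in the shortest quintile (3.68%) and 16 of 3964 in the longest (0.404%). WT medians were -0.18 and -0.17 in these quintiles, while its 4-fold lower genes made up 7.54% and 4.09%. Over the same quintiles the KO medians were 0.06 and 0.41 with ABA and -0.07 and 0.24 with mannitol, comparisons that share the KO control. Within the middle tercile of genes by level, the KO medians were -0.47 in the shortest quintile and -0.06 in the longest, and in the top tercile -0.42 and -0.05. In the lowest tercile they were -0.29 and -0.12. Genes at least 4-fold lower in KO made up 2.58% of the shortest and 2.22% of the longest quintile in the lowest tercile, 6.09% and 0.118% in the middle one, and 4.97% and 0.0594% in the top one. The WT medians ran the other way, from -0.32 to -0.46 in the lowest tercile, from -0.10 to -0.18 in the middle and from 0.18 to -0.03 in the top. The sources used here give no RNA integrity, and its part in the result was not tested.

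**Figure D5:**
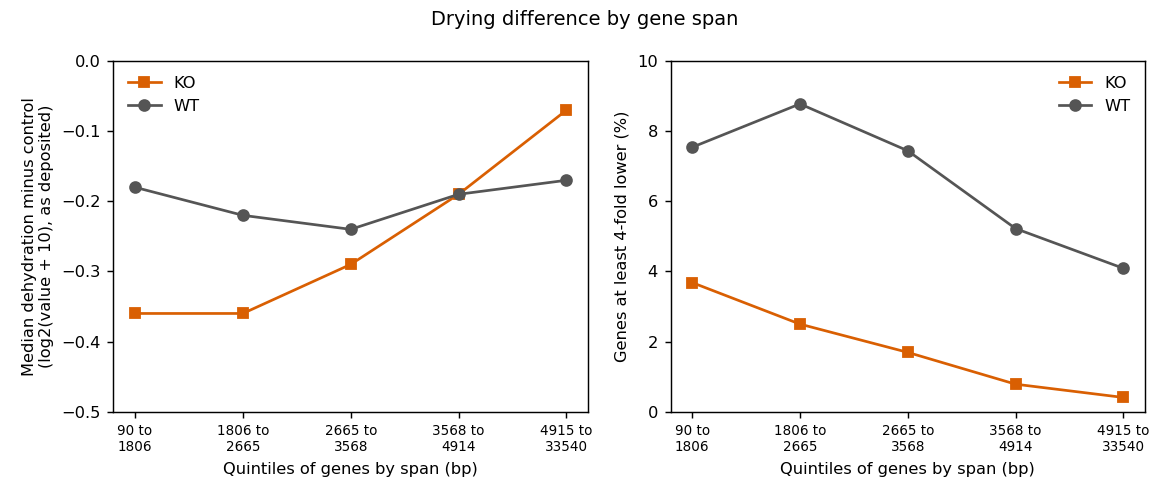
Median difference between dehydration and control (left) and percent of genes at least 4-fold lower (right) in quintiles of genes by span, for KO (squares) and WT (circles), as deposited. The KO median goes from -0.36 to -0.07 with span, whereas the WT medians stay between -0.24 and -0.17.

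Genes past 4-fold had shorter spans than the median of 3089 bp for all genes, with medians of 2029 bp for the higher and 1997 bp for the lower. An older V1.6 gene model existed for 68.4% of the higher and 74.7% of the lower genes, against 77.9% of all. Of the 57 higher genes, 18 adjoined another member among the measured genes, in 9 pairs. Of the 359 lower genes, 80 lay in 30 runs of neighbours, 10 of which held 3 or more genes and the longest 7. These counts include genes that share reads. The higher pair Phpat.008G046500 and Phpat.008G046600 counts as 1 gene by the 2% rule, as does the lower pair Phpat.001G111200 and Phpat.001G111300. A pair on scaffold_38 nearly repeats a pair on chromosome 1. Whether lists of this size would hold fewer runs was not tested. Gene models overlapping on opposite strands made up 2 of the higher genes (3.51%) and 13 of the lower (3.62%), against 5.33% of all. The sources used here do not say whether reads were counted by strand, so such partners cannot be told apart.

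A test was possible only for a drying effect shared by WT and KO, with genotypes standing in for replicates. limma with treatment and genotype terms over the 8 libraries called 0 of 19821 genes (0%) at an adjusted p under 0.05, the smallest adjusted p being 0.105, and 2826 genes had an unadjusted p under 0.05. On the recovered reads, the quasi-likelihood test of edgeR called 0 as well, with 2742 unadjusted and a smallest adjusted p of 0.103. This spread includes the difference between the genotypes' responses, and the test says nothing of KO alone. At the borders of the description, the 2 genes just above a mean of 20 had differences of -0.09 and 0.30 and the 2 just under it 0.15 and 0.51. Just past 4-fold higher were genes at 2.0044 and 2.0083, with 1.9877 and 1.9830 just short of it. Past 4-fold lower, beyond a gene at the threshold itself, was a gene at -2.0010, with -1.9997 and -1.9978 just short.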

How the data were processed

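Per the labels, polyadenylated RNA pooled from 3 biological replicates was reverse-transcribed with random primers and 1 library was sequenced per group. Per the submitters' processing notes, FastQC, Trimmomatic, TopHat2, SAMtools and bedtools were used, with no versions. The authors deposited 1 abundance signal per gene and library, and gene positions of build V3.0. Dividing the deposited signal by the smallest step of each library gave whole reads for 100% of values within 0.01 read. The step equalled the reciprocal of the TMM factor of all 26610 genes, so the deposited signal is not scaled to library size. Intervals are exact binomial (Clopper-Pearson), conditional on the summed reads for ratios.

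Genes with a mean of at least 20 were kept (19821, with 6789 left out), and log2(value + 10) was compared. The reference gene table matched 0 IDs. Genes were named by a rule of 2 places per direction in each of 5 rankings. Over all genes kept, these were the largest KO difference and the change in share of reads. Within the 4-fold lists, they were the mean level in the KO pair and the WT difference. The WT difference was ranked from its extreme against the KO direction and from its extreme in the KO direction. Genes agreeing within 2% in libraries of 100 reads or more, and within 5 reads elsewhere, took 1 place. The comparison, lists and tests were chosen with earlier results of these data known.

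The additive fit used limma 3.58.1 (two-sided, Benjamini-Hochberg) and edgeR 4.0.16 under R 4.3.3, with 3 residual degrees of freedom. On simulated data of 19821 genes for the shared dehydration effect, limma recovered 84 of 100 genes changed by 2 log2 units and 100 of 100 changed by 3, and edgeR 98 and 100, with 1 and 6 false calls. The simulated data had a fixed dispersion of 0.05 and no difference between genotypes in level or response. In the real fit that difference in response is part of the residual, so these recovery rates do not describe its power. p-values measure the spread between these pooled libraries.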

Additional observations from a re-analysis of the deposited data

Results flagged for a closer look

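As deposited, 4 of the named genes moved at least 4-fold in opposite directions in KO and WT after drying. The difference between genotypes was not tested in any of them. All 4 were named because they were opposite. Phpat.001G167300 had a log2 difference of 3.89 in KO and -4.11 in WT. Phpat.002G140300 had 2.69 and -3.68, Phpat.009G072700 had -2.06 and 4.38, and Phpat.012G071800 had -2.29 and 4.85.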

How the results depend on the processing

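The counts and the overall median moved with the settings, whereas none of the 18 named genes past 4-fold changed direction in 108 recomputed values under 6 settings. In 9 of these values, from 4 genes, the difference was short of 4-fold. Phpat.009G072700 had -1.87 with either library-size scaling, -1.69 with totals alone and -1.13 with a pseudocount of 50. Phpat.012G071800 had -1.88 and -1.39 in the last 2 settings, and Phpat.023G046500 had 1.89 with a pseudocount of 50. With both controls as the reference, Phpat.002G140300 had 1.53 and Phpat.023G046500 1.14. Of the 5 named genes short of 4-fold as deposited, 3 changed sign: Phpat.026G000100 from -0.16 to as high as 0.35, and Phpat.020G002700 and Phpat.020G003200 from -0.38 to 0.13. Median-of-ratios scaling gave 89 genes higher, 255 lower and a median of 0.01, and TMM with library size gave 89, 256 and 0.00. Scaling to library totals alone, chosen after seeing the data, gave 120 higher, 183 lower, a median of 0.22 and a WT median of -2.56 for the lower genes. The library-size settings add depth to the deposited values, and totals alone also drop the TMM factor. A pseudocount of 1 gave 116 higher and 609 lower with a median of -0.26, and one of 50 gave 30, 157 and -0.20. Without the filter the median was -0.15. At 2-fold, 390 were higher and 2138 lower, with WT medians of 0.38 and -1.38 (1373 higher and 942 lower with totals alone), and at 8-fold 16 and 72, with 0.07 and -2.73, so the sign of the WT median of the higher genes depends on the threshold and the cause was not tested. With the mean of both control libraries as the reference, 98 were higher and 456 lower with a median of -0.08, and 45 of the 57 and 293 of the 359 genes were shared. The shared drying effect stayed at 0 calls in every fit run, with edgeR (TMM and library size), without the filter, with median-of-ratios scaling, with library totals alone, with a pseudocount of 1, and with the control and dehydration libraries alone. No paired analysis was possible for KO because each group holds 1 library, and only the shared fit sets drying against control within genotypes, through its genotype term. Genes with few reads are limited by depth: 3 reads are 9.12e-06% of the KO control library and 1.10e-05% of the KO dehydration library.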

Other observations

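Genes past 4-fold in KO were spread over the genome. The 359 lower genes lay on all 27 chromosomes, with shares of the measured genes from 0.498% on chromosome 22 (3 genes) to 3.60% on chromosome 27 (10 genes). The 57 higher genes lay on 20 chromosomes. Chromosome 1 had 8, or 0.612% of its 1307 measured genes, against 0.288% of all genes. Those 8 include Phpat.001G041900 and Phpat.001G043100, which may share reads. By mean level, the lower genes numbered 102 in the lowest quintile of genes and 79 in the highest, with the fewest, 39, in the one next to the highest.

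The lower genes were picked for a low KO dehydration and a high KO control value, so the ranks of these libraries are set in part by the choice. Among the other libraries, with library size included, the lowest of the 8 levels was in KO mannitol in 87 of the 359 (24.2%, against 11.7% of all genes) and in WT dehydration in 77 (21.4%, against 20.3%). The highest was in the WT control in 168 (46.8%, against 8.64%).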
